A study of Mus musculus with 12 samples.

Results

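The 5 genes described here were Cdh2, Cdh6, Cdh18, Cdh23 and Cdh26, cadherins of mouse pancreatic stellate cells (PSCs). They are 5 of the 24 genes with a cadherin name, and of the 420 genes in all, on a targeted RNA panel for extracellular matrix and cell adhesion genes. They were chosen by the normalized counts of these same libraries in all 4 groups, with the earlier results known. Their differences are therefore given as a description and without p-values, and whether a difference passed a threshold is description as well. The libraries came from WT PSCs and from PSCs in which PKN2, a protein kinase, had been deleted (PKN2 KO), each grown for 72 h with vehicle or with TGF-β1 at 5 ng/ml. Each of the 4 groups has 3 libraries, lettered A, B and C, 12 in all. By the study's methods the cells were isolated from the pancreas of 1 male mouse that carried the Rosa26CreERT2 transgene and floxed PKN2 alleles, were immortalised with SV40 large T antigen, and lost PKN2 after a pulse of 4-hydroxytamoxifen. The labels give a C57BL/6 background for all groups. The transgene is not restricted to a cell type, and all groups share the immortalisation and the floxed line. Whether the WT cells were also given 4-hydroxytamoxifen is not given in the sources used here. The methods describe separate dishes per condition and call replicates of cell experiments biological, whereas the design text speaks of lines. How the libraries of a group map to dishes or lines is not given, so p-values measure only the spread between these libraries, which may be technical in part.

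Cadherins are calcium-dependent adhesion proteins that span the membrane and bind cadherins of the neighbouring cell. In classical cadherins the inner part binds β-catenin, which is linked through α-catenin to actin. Type I classical cadherins include Cdh2 (N-cadherin), the usual cadherin of mesenchymal cells, whereas Cdh6, Cdh18, Cdh11 and Cdh24 belong to type II. Cdh23 is a large atypical member known for the tip links of inner ear hair cells, and Cdh26 is a less studied cadherin known from mucosal epithelium. TGF-β1 activates PSCs toward myofibroblasts and is a classical inducer of changes in cadherin usage in other cell types.

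Between 1074095 and 1473153 reads per library fell on the panel, and 238 genes passed the filter of at least 10 normalized counts in at least 3 libraries. The normalized count is the number of reads of a gene divided by 1 factor per library, which the authors set from reference genes. The libraries lettered B had the lowest normalized total in each group. The panel has no assay for Pkn2, and the loss of its transcript was therefore not checked here. Of 8 genes listed as fibroblast or stellate markers, 7 passed the filter, and Lum had at most 5 reads in any library. Of 9 epithelial markers 1 passed, Lamb3, with at most 28 reads, and Cdh1 had at most 4. Their summed level was 16.4 to 32.5 normalized counts in the vehicle libraries and 28.5 to 61.6 in those with TGF-β1. Of 9 endothelial markers 2 passed, Mmrn2 and Cd93, with at most 22 reads each, and Cdh5 had at most 7. Their summed level was 10.6 to 24.7 in vehicle and 17.8 to 39.5 with TGF-β1. The part of these markers in the results was not tested. All 7 listed Schwann or neural markers were at 0 in all libraries.

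In GRCm38 annotation (GENCODE M21), Cdh6 lies at chr15:13028701-13173675 on the minus strand, Cdh18 at chr15:22549022-23474418 on the plus strand, Cdh23 at chr10:60302748-60696490 on the minus strand and Cdh26 at chr2:178430531-178487366 on the plus strand. Promoter windows of 300 bases from RefSeq (build GRCm38.p6, 250 bases before and 50 after the start of the gene) matched 4 of the 5 members, all but Cdh2. The windows of Cdh6 and Cdh26 are shown because these members differed most between vehicle and TGF-β1. Capitals mark the letters GTCT or their reverse complement AGAC, the core that Smad proteins bind. The Cdh6 window is chr15:13173626-13173925 on the minus strand, and that of Cdh26 is chr2:178430265-178430564 on the plus strand.
Cdh6: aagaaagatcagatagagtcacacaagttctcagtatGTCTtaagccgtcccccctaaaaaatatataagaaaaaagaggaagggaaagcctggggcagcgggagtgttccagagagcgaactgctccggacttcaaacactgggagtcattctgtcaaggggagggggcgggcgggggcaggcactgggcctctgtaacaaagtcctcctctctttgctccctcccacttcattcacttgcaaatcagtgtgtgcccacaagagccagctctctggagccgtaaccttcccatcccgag
Cdh26: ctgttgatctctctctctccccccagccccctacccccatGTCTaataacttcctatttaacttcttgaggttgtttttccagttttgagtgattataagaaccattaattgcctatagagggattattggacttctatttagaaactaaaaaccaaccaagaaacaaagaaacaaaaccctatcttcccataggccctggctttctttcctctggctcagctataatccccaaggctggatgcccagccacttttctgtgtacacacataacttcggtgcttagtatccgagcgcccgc
Each window held 1 match, whereas the windows of Cdh18 and Cdh23 held 4 and 2. Of 32544 promoter windows of this length, 88.0% held at least 1 match and the median was 2, so the presence of a match sets none of the 4 apart. The letters CAGGTG (an E-box, on either strand) and GGAATG (the core bound by TEAD factors, on either strand) were in none of the 4 windows, against 20.3% and 14.6% of all windows. These are matches of letters only.

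In vehicle, the PKN2 KO libraries of Cdh2, Cdh18, Cdh23 and Cdh26 lay below all WT libraries, whereas those of Cdh6 overlapped. Of the 238 genes that passed the filter, 8.4% were lower in PKN2 KO without overlap in vehicle and 23.9% were higher. With TGF-β1 the libraries of Cdh6 moved up 48.1-fold in WT and 52.3-fold in PKN2 KO PSCs, and those of Cdh26 moved from more than 50 normalized counts to 3 reads or fewer. Cdh18 passed the filter through WT vehicle alone and Cdh26 through the vehicle libraries alone. The direction of Cdh18 in vehicle and of Cdh26 with TGF-β1 was therefore set by the filter. Each of these statements follows from values that were in view when the members were chosen.

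**Figure D1:**
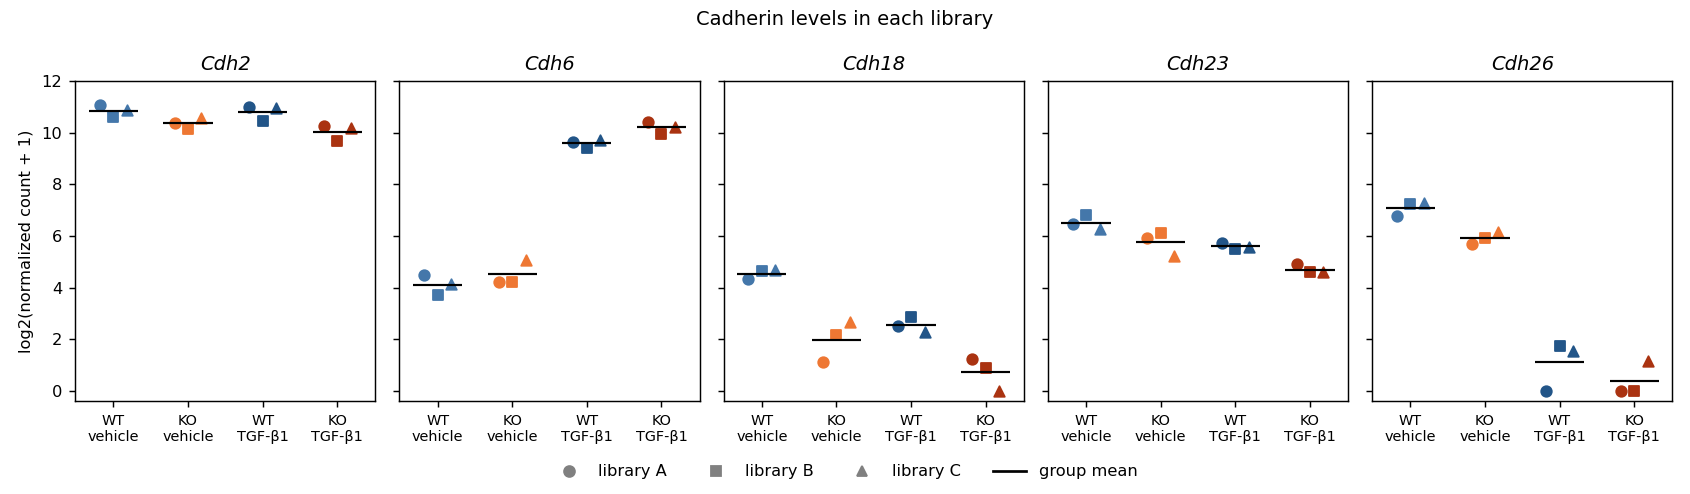
Level of each cadherin in each of the 12 libraries, as log2(normalized count + 1) on the vertical axis, by group on the horizontal axis. Symbols give the library letter and lines the mean of the 3 libraries. Cdh6 sits near 4 to 5 in vehicle and near 10 after TGF-β1, whereas Cdh26 sits between 5 and 8 in vehicle and under 2 after TGF-β1.

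Cdh2, the type I cadherin, had normalized counts of 2143, 1560.1 and 1870.4 in WT vehicle libraries A, B and C, and 1329, 1138 and 1519 in PKN2 KO vehicle. After TGF-β1 it had 2019, 1386 and 1959 in WT and 1212, 819 and 1156 in PKN2 KO. The PKN2 KO libraries were below the WT libraries in both treatments, whereas vehicle and TGF-β1 overlapped in both genotypes. Ordered by mean, PKN2 KO with TGF-β1 (1062 ± 212, SD, n = 3) was lowest, then PKN2 KO vehicle (1328 ± 191), WT with TGF-β1 (1788 ± 349) and WT vehicle (1858 ± 292). Neighbours in this order overlapped. In bulk RNA, fewer cells with the transcript and less of it per cell cannot be told apart, here or for the other members. The log2 fold change in PKN2 KO against WT was -0.48 (standard error 0.21) in vehicle, which did not pass an adjusted p of 0.05 in limma, and -0.75 (0.21) after TGF-β1, which did. The call after TGF-β1 was lost without WT replicate A (-0.65), WT replicate C (-0.68) or PKN2 KO replicate B (-0.57). The vehicle difference passed with total count, median-of-ratios or TMM scaling.

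The size of these differences depended on the scaling. The median log2 fold change of all 238 genes in vehicle was 0.21 with the authors' factors, 0.00 with TMM, -0.02 with the median of ratios and 0.15 with the total count. Relative to the median of all genes, the Cdh2 difference between genotypes was -0.69 in vehicle and -0.88 after TGF-β1. Without subtracting that median, it was -0.71 to -0.48 in vehicle and -0.95 to -0.75 after TGF-β1 over the settings run on all 3 libraries per group or without the libraries lettered B. In RPM, the reads scaled to the panel total of each library, Cdh2 in WT PSCs was 1567 to 1691 in vehicle and 1263 to 1397 after TGF-β1, without overlap. Scaled to the total count its log2 fold change with TGF-β1 in WT was -0.31 and passed the threshold, where the median of all genes was -0.25. With the authors' factors it was -0.06 (standard error 0.21).

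Cdh6, a type II cadherin best known from the developing kidney, had normalized counts of 21.2, 12.2 and 16.8 in WT vehicle and 17.6, 17.7 and 32.9 in PKN2 KO vehicle. These came from 15 to 31 reads per library. After TGF-β1 it had 805, 679 and 832 in WT and 1368, 997 and 1194 in PKN2 KO PSCs. All libraries with TGF-β1 were above all vehicle libraries, and after TGF-β1 all PKN2 KO libraries were above all WT libraries. Of the 238 genes tested, 61 in WT and 51 in PKN2 KO were higher with TGF-β1 without overlap. In pooled reads scaled by the authors' factors, the ratio of TGF-β1 to vehicle was 48.1 in WT (95% interval 36.7 to 64.4) and 52.3 in PKN2 KO (41.4 to 67.2), where these exact intervals cover counting error only. The log2 fold changes were 5.47 (standard error 0.28) and 5.70 (0.28), with ranks 2 and 1 of the 238 genes, and both passed the threshold. In PKN2 KO against WT, Cdh6 had log2 fold changes of 0.39 (0.28) in vehicle and 0.61 (0.28) after TGF-β1, neither past the threshold. The latter passed with DESeq2 on the reads.

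Cdh18, a type II cadherin mainly known from the nervous system, was counted with few reads. It had 16, 35 and 25 reads in vehicle-treated WT, 1, 5 and 5 in PKN2 KO vehicle, 4, 8 and 4 in WT with TGF-β1, and 1, 1 and 0 in PKN2 KO with TGF-β1. It passed the filter through the WT vehicle libraries alone, so that a difference from that group was set by the filter. WT vehicle stood above each other group, at 22.4 ± 3.08 normalized counts (SD, n = 3) against 3.33 ± 2.07 in PKN2 KO vehicle, 4.96 ± 1.26 in WT with TGF-β1 and 0.743 ± 0.691 in PKN2 KO with TGF-β1. PKN2 KO vehicle overlapped with both TGF-β1 groups. Pooled reads in vehicle were 6.64-fold lower with PKN2 deleted (95% counting interval 3.51 to 13.9) and 6.88-fold lower after TGF-β1 (1.62 to 61.7).

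The log2 fold changes of Cdh18 in PKN2 KO against WT were -2.55 (standard error 0.51) in vehicle and -1.84 (0.51) after TGF-β1, and both passed the threshold. With TGF-β1 it was -1.98 (0.51) in WT, past the threshold, and -1.27 (0.51) in PKN2 KO, not past it. The calls in vehicle and with TGF-β1 in WT are against WT vehicle, through which alone Cdh18 passed the filter. Their direction was therefore set by the filter, and passing the threshold is no support for them. After TGF-β1 the genotype difference no longer passed without WT replicate A (-1.86), WT replicate B (-1.68) or PKN2 KO replicate C (-1.49). It also did not pass with edgeR or DESeq2 on the reads. The same held with a pseudocount of 5, without the libraries lettered B and with only the groups compared. The TGF-β1 difference in PKN2 KO passed without vehicle replicate A (-1.70) or TGF-β1 replicate A (-1.54). At these read numbers the fitted value depends on the pseudocount: with 5 in place of 1 the genotype differences were -1.74 and -0.79.

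Cdh23, the tip link cadherin, had normalized counts of 86.1, 110.1 and 75.9 in WT vehicle and 59.8, 67.8 and 36.0 in PKN2 KO vehicle. After TGF-β1 it had 51.9, 44.3 and 46.1 in WT and 28.7, 23.2 and 23.2 in PKN2 KO PSCs. The genotypes did not overlap in either treatment, and the treatments did not overlap in either genotype. The latter was common: of the 238 genes, 72 in WT and 75 in PKN2 KO were lower with TGF-β1 without overlap. The order by mean was PKN2 KO with TGF-β1 (25.0 ± 3.19, SD, n = 3), WT with TGF-β1 (47.4 ± 4.0), PKN2 KO vehicle (54.5 ± 16.5) and WT vehicle (90.7 ± 17.6), and only the middle pair of neighbours overlapped.

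With TGF-β1, Cdh23 had log2 fold changes of -0.91 (standard error 0.30) in WT and -1.05 (0.30) in PKN2 KO, both past the threshold. The call in WT was lost without WT vehicle replicate B (-0.76), WT TGF-β1 replicate B (-0.86) or WT TGF-β1 replicate C (-0.89). In PKN2 KO it held in each of the 6 fits without 1 library. In PKN2 KO against WT the values were -0.76 (0.30) in vehicle and -0.90 (0.30) after TGF-β1, neither past the threshold. Relative to the median of all genes they were -0.96 and -1.03. With TMM scaling the latter was -1.09 and passed. It passed in 8 of 14 other settings, among them the median of ratios, DESeq2 and a pseudocount of 5. The vehicle difference passed in 3 of 14, with the median of ratios and with the library letter as a block. Neither passed in any of the 6 fits without 1 library.

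Cdh26 had normalized counts of 107.4, 149.3 and 153.8 in WT vehicle and 50.4, 59.4 and 69.9 in PKN2 KO vehicle. After TGF-β1 it had 0, 3 and 2 reads in the WT libraries and 0, 0 and 1 in the PKN2 KO libraries. It passed the filter through the vehicle libraries alone, so that the direction with TGF-β1 was set by the filter. In pooled reads it was 88.3-fold lower with TGF-β1 in WT (5 against 468 reads, 95% counting interval 37.6 to 273) and 163-fold lower in PKN2 KO (1 against 193 reads, 28.9 to 6473). The log2 fold changes were -5.99 (standard error 0.49) and -5.53 (0.49), both past the threshold with rank 4 from the lowest of the 238 genes, and with a pseudocount of 5 in place of 1 they were -4.47 and -3.58.

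In vehicle the PKN2 KO libraries of Cdh26 were below the WT libraries, with a ratio of pooled reads of 0.429 (95% counting interval 0.361 to 0.508). The log2 fold change was -1.17 (standard error 0.49) and did not pass the threshold. It passed with edgeR (-1.19) and DESeq2 (-1.19) on the reads. After TGF-β1 both genotypes were at or under the floor of 3 reads, and no fold is given. The summed level of 12 listed immune markers moved with Cdh26, from 199.97 to 380 normalized counts in vehicle to 45.8 to 84.8 after TGF-β1. Of these markers, Itgal, Cd84, Cd226 and Clec4e were at 0 in all libraries, Itgam had at most 1 read, and Itgb7, with 41 to 325 reads, was the most counted.

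**Figure D2:**
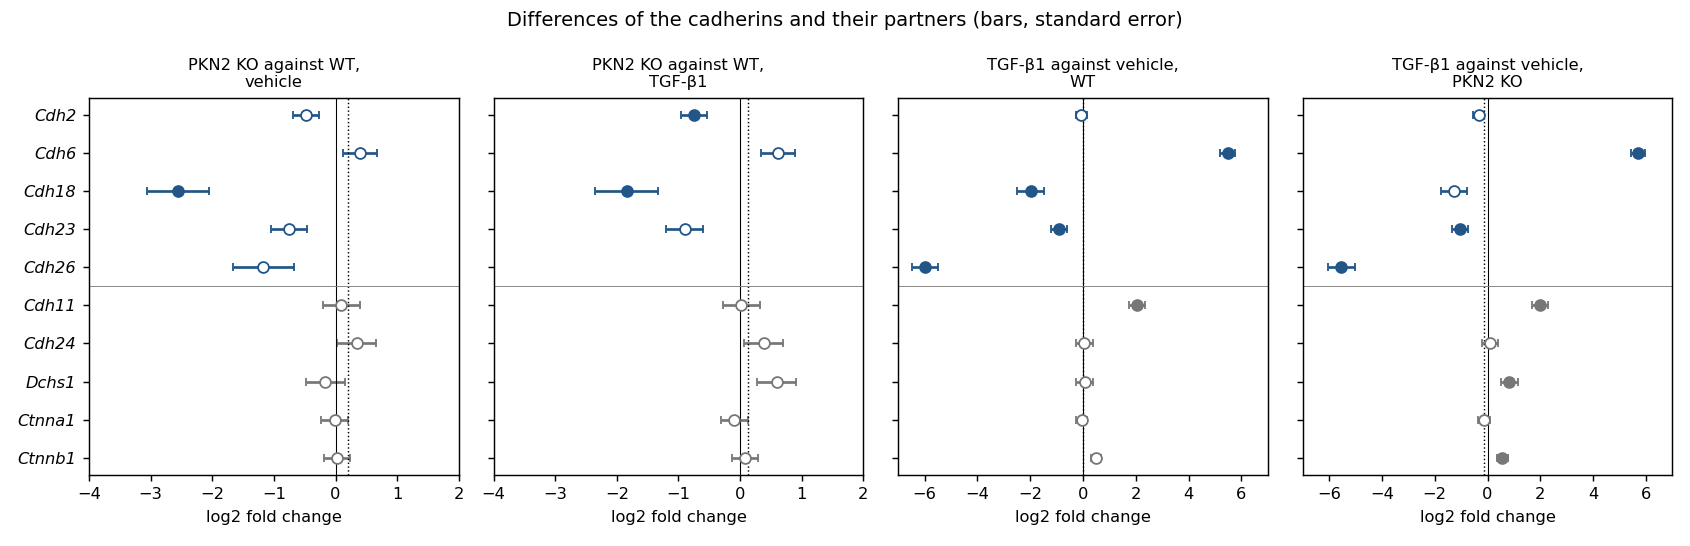
Log2 fold change with its standard error from limma, on the horizontal axis, of the 5 cadherins (blue) and of the 5 other listed genes that passed the filter (grey) in 4 comparisons. Filled points passed an adjusted p of 0.05 and the dotted line is the median of all 238 genes. Cdh6 is near 5.5 and Cdh26 near -5.5 to -6 with TGF-β1 in both genotypes, and Cdh2, Cdh18 and Cdh23 lie to the left of the dotted line in both genotype comparisons. Cdh26 is not drawn between genotypes after TGF-β1, where both were at or under 3 reads.

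Over the members, 1 of 5 was called in PKN2 KO against WT in vehicle (lower), where 13.9% of the 238 genes were called, 10.9% higher and 2.94% lower. After TGF-β1, 2 of 5 were called, both lower, against 15.1% of all genes, 8.82% higher and 6.3% lower. With TGF-β1, 4 of 5 were called in WT (1 higher, 3 lower) against 50.8% of all genes (23.9% higher, 26.9% lower), and 3 of 5 in PKN2 KO (1 higher, 2 lower) against 48.7% (19.7% higher, 29.0% lower). Libraries of the genotypes did not overlap for 4 members in vehicle, all lower, where 8.4% of all genes were apart downward and 23.9% upward. After TGF-β1 they did not overlap for 3 lower members and 1 higher, against 10.5% and 17.6%. The median log2 fold change of the members was -0.76 in vehicle and, with the fitted value of Cdh26 included, -0.75 after TGF-β1, where the median of all genes was 0.21 and 0.13. It was -0.91 with TGF-β1 in WT and -1.05 in PKN2 KO, against 0.00 and -0.14. The call in vehicle was Cdh18, and the calls with TGF-β1 held Cdh18 in WT and Cdh26 in both genotypes. Cdh18 passed the filter through WT vehicle alone and Cdh26 through vehicle alone, so the direction of these calls was set by the filter. The same holds for Cdh18 among the members without overlap in vehicle. Since these contrasts were used for the choice, the counts say nothing further about the members.

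The interaction of genotype and TGF-β1 asks whether the difference between genotypes changed with treatment. It was -0.27 (standard error 0.30) for Cdh2, 0.22 (0.39) for Cdh6, 0.71 (0.71) for Cdh18 and -0.14 (0.42) for Cdh23. For Cdh26 no value is given, since both genotypes were at or under the floor after TGF-β1, and that of Cdh18 was -0.04 with DESeq2. In limma 0 of 5 members passed an adjusted p of 0.05, and 0 passed an unadjusted one, with 0 as well by edgeR and DESeq2, where 3.36% of all genes were called. With a pseudocount of 5 in limma, 2 of 5 (Cdh18 and Cdh26) had an unadjusted p under 0.05 and 0 an adjusted one. The reads of Cdh18 and Cdh26 leave large differences undetectable at this depth.

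Cdh11, the type II cadherin of fibroblasts, was not among the members and moved with TGF-β1. It was listed with results of these data known, so its p-values serve as a description. Its normalized count was 896.6 to 1584 in the vehicle libraries and 3517 to 7141 in those with TGF-β1. The log2 fold change was 2.06 (standard error 0.30, with an adjusted p of 3.67e-05 by limma) in WT and 1.98 (0.30, 6.22e-05) in PKN2 KO, and both calls held without each library in turn. Its genotype difference was 0.09 (0.30, adjusted p = 0.89) in vehicle and 0.02 (0.30, 0.98) after TGF-β1. Since Cdh11 is counted in the same libraries, the ratio of 2 genes within a library does not depend on the scaling. The Cdh2 to Cdh11 ratio of reads was 1.35 to 1.74 in vehicle-treated WT, 0.886 to 1.17 in PKN2 KO vehicle, 0.301 to 0.417 in TGF-β1-treated WT and 0.170 to 0.237 in PKN2 KO with TGF-β1. The 4 groups did not overlap in this ratio. Between treatments most of its difference is that of Cdh11, whose mean rose 4.18-fold in WT and 4.06-fold in PKN2 KO. The mean of Cdh2 with TGF-β1 was 0.96 of that in vehicle in WT and 0.80 in PKN2 KO, with overlap. Overlap in such ratios was not counted over other genes. The Cdh6 to Cdh11 ratio was 0.120 to 0.181 in WT and 0.192 to 0.284 in PKN2 KO after TGF-β1, again without overlap.

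The make-up of the reads of all 24 panel cadherins, a share of amplified reads and not of molecules, was also compared between the groups. Cdh2 held 53.9 ± 0.812% of them (SD, n = 3) in vehicle-treated WT, 46.2 ± 3.01% in PKN2 KO vehicle, 23.1 ± 2.34% in WT with TGF-β1 and 14.2 ± 1.77% in PKN2 KO with TGF-β1. Cdh6 held 0.479 ± 0.0533%, 0.783 ± 0.243%, 10.1 ± 1.60% and 16.0 ± 2.12% in the same order. For Cdh11 the shares were 34.6 ± 4.19%, 44.0 ± 3.93%, 64.2 ± 4.43% and 67.3 ± 4.39%. The share of Cdh2 was below WT in PKN2 KO in both treatments without overlap, and that of Cdh6 was higher after TGF-β1 without overlap. Shares sum to a fixed total, so a rise in 1 gene lowers the others.

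**Figure D3:**
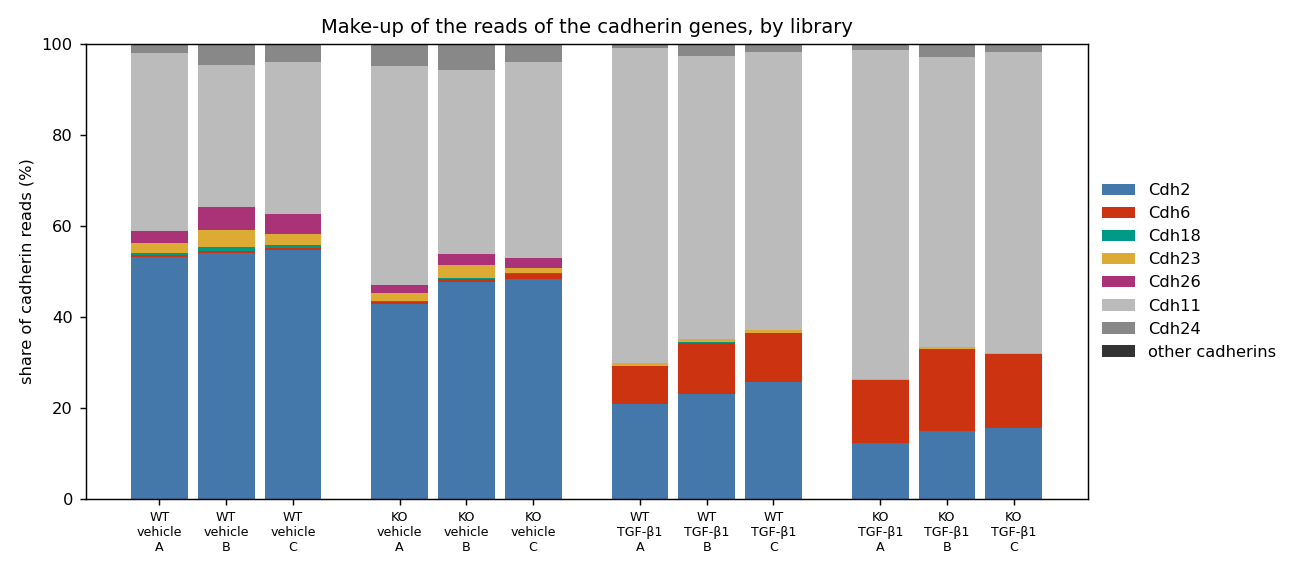
Share of the reads of all panel cadherins, in percent on the vertical axis, held by each gene in each of the 12 libraries. Cdh2 (blue) takes 53.1 to 54.7% in the WT vehicle libraries and 12.3 to 15.6% in the PKN2 KO libraries with TGF-β1, where Cdh6 (red) takes 13.8 to 18.1%.

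A list of 25 further genes of this adhesion machinery held the other panel cadherins, 3 catenins and 3 genes of the wider superfamily (Dchs1, Celsr2 and Celsr3), and was set with results of these data known. Of these, 5 passed the filter (Cdh11, Cdh24, Dchs1, Ctnna1 and Ctnnb1), 9 had reads below it and 11 had none. In limma 0 of the 5 passed the threshold between genotypes in vehicle or after TGF-β1, and 0 passed an unadjusted p of 0.05 there, with 0 called by edgeR or DESeq2. Of all 238 genes 13.9% and 15.1% were called in these comparisons, so 0 of 5 does not set these genes apart. Ctnnb1, which encodes β-catenin, had 6449 to 8444 normalized counts in WT vehicle and 8857 to 11683 with TGF-β1. Its log2 fold change with TGF-β1 was 0.49 (standard error 0.21 and adjusted p = 0.061 in limma) in WT and 0.55 (0.21, 0.039) in PKN2 KO PSCs. Ctnna1, which encodes αE-catenin, had -0.06 (0.22, adjusted p = 0.86) and -0.13 (0.22, 0.66).

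Dchs1, a large cadherin that binds Fat4 in planar polarity, rose with TGF-β1 in PKN2 KO PSCs from 14.8 to 22.3 normalized counts in vehicle to 24.9 to 41.0. The log2 fold change was 0.83, with a standard error of 0.32 and an adjusted p of 0.043 by limma. In WT it was 0.07 (0.32, 0.89). The difference between these, an interaction of 0.76 (0.45, adjusted p = 0.57), was not past the threshold. The call in PKN2 KO was kept in 2 of 6 fits without 1 library, at 0.65 to 0.998, and lost without vehicle replicate A or B or TGF-β1 replicate A or C. That of Ctnnb1 in PKN2 KO was kept in 1 of 6, at 0.41 to 0.68. After TGF-β1 the Dchs1 libraries of PKN2 KO (24.9 to 41.0) were above all those of WT (19.0 to 23.6). Of all 238 genes, 17.6% were higher in this way. The log2 fold change of Dchs1 was 0.59 (standard error 0.32, adjusted p = 0.24 by limma), not past the threshold. Cdh24, a type II cadherin, had 66.1 to 156 normalized counts over all libraries and was not called in any comparison.

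Over the 12 libraries, which fall into 4 groups, the tested genes most like each member were named by the Pearson correlation of log2(normalized count + 1). For Cdh6 they were Adamts7, Alcam and Col5a3 (r = 0.99, 0.99 and 0.99). Their means in WT PSCs went from 83.4 to 347, from 499.6 to 3311 and from 265 to 1499 normalized counts with TGF-β1. For Cdh26 they were Adamtsl4, Vcam1 and Efemp1 (r = 0.98, 0.98 and 0.98), with means in WT of 442 and 52.4, 940.3 and 47.8, and 5459 and 36.0 in vehicle and after TGF-β1. These values mostly restate which genes differ between vehicle and TGF-β1. The order depended on the scaling. With total count scaling Adamts7 fell to rank 10 and Col5a3 to rank 5 for Cdh6, where Alcam kept rank 2. For Cdh26, Adamtsl4 fell to rank 6 and Efemp1 to rank 5, and Vcam1 was at rank 1.

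For Cdh23 the most alike were Col2a1, Thsd7a and Adamts14 (r = 0.93, 0.89 and 0.87), and for Cdh18 they were Col2a1, Thsd7a and Cdh23 (r = 0.85, 0.85 and 0.83). Thsd7a, a thrombospondin-type gene, was also second for Cdh2 (r = 0.84), after Loxl2 (0.88) and before Col8a1 (0.83). Its means were 228 in vehicle-treated WT, 129 in PKN2 KO vehicle, 173 in WT with TGF-β1 and 64.0 in PKN2 KO with TGF-β1. With total count scaling Thsd7a ranked first for Cdh2 (r = 0.96) and Loxl2 fell to rank 13. Among the members, Cdh6 and Cdh26 had r = -0.98, and Cdh18 and Cdh23 had r = 0.83. All of these share libraries and factors, and no test was made.

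**Figure D4:**
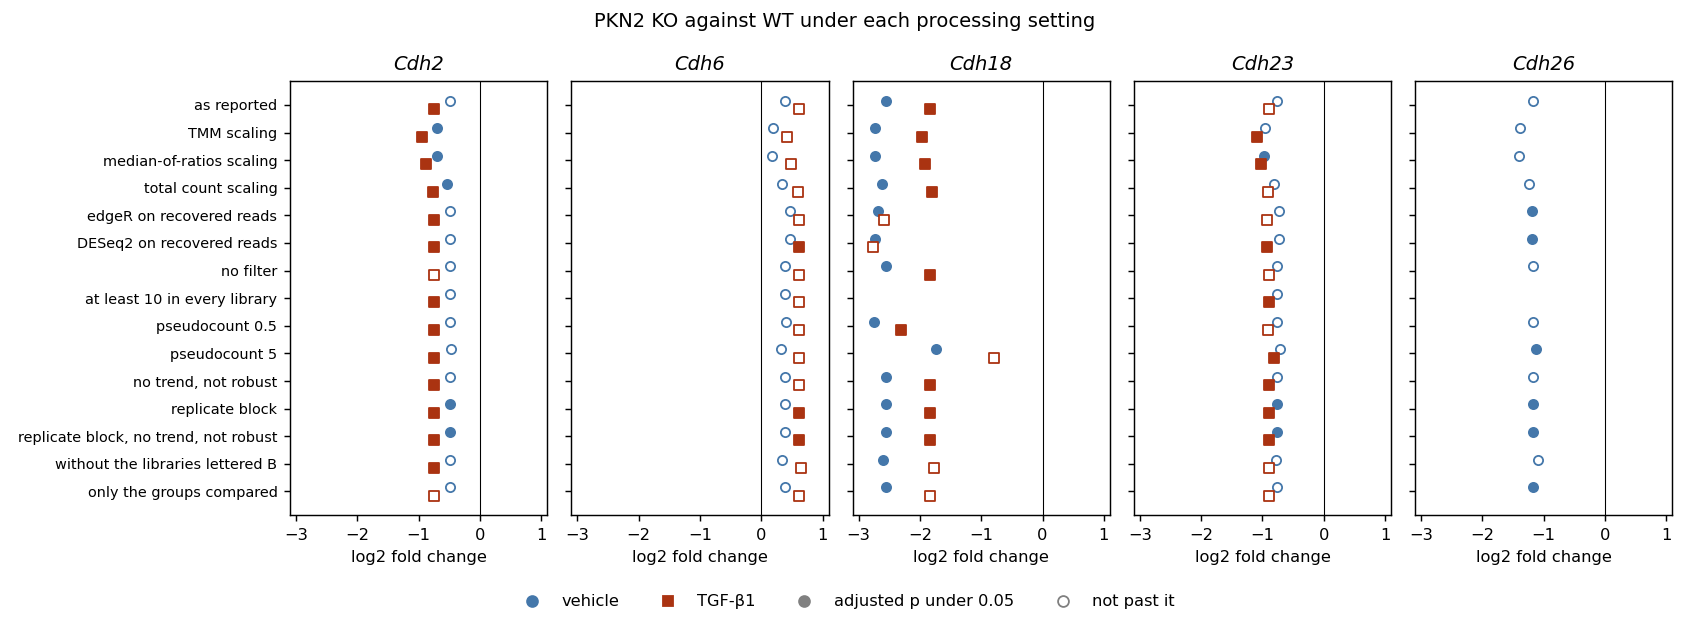
Log2 fold change of PKN2 KO against WT for each cadherin, on the horizontal axis, under each processing setting on the vertical axis, in vehicle (circles) and after TGF-β1 (squares). Filled symbols passed an adjusted p of 0.05. Each point of Cdh2, Cdh18, Cdh23 and Cdh26 is below 0 and each of Cdh6 above 0, while which of them pass changes with the setting. Cdh26 is drawn in vehicle only.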

How the data were processed

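RNA of 12 libraries was amplified with a targeted panel and sequenced. Per the labels and the study's methods, the authors aligned reads with STAR to mm10 and used DESeq2 1.32. They deposited raw counts per gene and normalized counts, a signal for which the counts of a library were divided by 1 factor from reference genes that are not named. Of the raw columns, 6 have names that fit no single library and were not used. Reads recovered from the normalized counts were within 6.77e-05 of whole numbers and were equal to the raw counts for all 420 genes in the 6 libraries that could be compared. Genes were tested with limma 3.58.1 in R 4.3.3 on log2(normalized count + 1), with a trend and robust estimation, 1 mean for each of the 4 groups, at least 10 normalized counts in at least 3 libraries, and Benjamini-Hochberg adjustment over the 238 genes. On this scale the differences of low genes come out too small. Alternatives used edgeR 4.0.16 and DESeq2 1.42.0 on the recovered reads, other scalings, filters and pseudocounts, each library left out and the letter as a block. The tests were tested on simulated data. Counting intervals are exact, at 95%, and cover counting error only. Ratios and shares of reads between genes were given, but amplicon counts were not read as levels that compare genes. The members and all lists were chosen with earlier results of these data known. Named genes were the members, each listed gene that passed the filter and the 3 genes most correlated with each member.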

Additional observations from a re-analysis of the deposited data

How the results depend on the processing

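No called log2 fold change of a member changed sign in the settings run, and the number of members called depended on them. In vehicle 1 member was called, with 2 by TMM, total count scaling, edgeR, DESeq2, a pseudocount of 5 or only the groups compared, 3 with the median of ratios, and 0 with at least 10 in every library, which removes Cdh18 and Cdh26 (2 of the 3 left had an unadjusted p under 0.05 in limma). After TGF-β1 2 were called, with 3 by TMM, median of ratios, DESeq2 or no trend and no robust estimation, 1 by edgeR, with no filter or without the libraries lettered B (chosen after seeing the data), and 0 with only the groups compared (4 with an unadjusted p under 0.05 in limma). With TGF-β1 in WT it was 4, with 5 by total count scaling (Cdh2 added), 3 without the libraries lettered B (Cdh23 lost) and 2 with at least 10 in every library. In PKN2 KO it was 3, with 5 by total count scaling, 4 by TMM, a pseudocount of 0.5 or no trend and no robust estimation, and 2 with at least 10 in every library or without the libraries lettered B. The settings not named gave the same numbers, the block aside. Leaving out 1 library gave 1 member in vehicle, 0 to 2 after TGF-β1, 3 to 4 with TGF-β1 in each genotype and 0 interactions.

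Of the 5 other listed genes, 1 was called with TGF-β1 in WT, with 2 by TMM, median of ratios, DESeq2 or without the libraries lettered B, and 3 with the total count. In PKN2 KO it was 3, and 1 with only the groups compared. In the fits as reported, 50.8% of all 238 genes were called with TGF-β1 in WT and 48.7% in PKN2 KO. Leaving out 1 library gave 1 to 2 in WT and 1 to 3 in PKN2 KO. The cause was not tested.

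Same-lettered deviations from the group means correlated above 0.1 in 8 of 12 pairs, from 0.35 to 0.70 for the letters A and B, and from -0.03 to 0.08 for C. Libraries A and B thus share variation by letter and C does not, so the block was kept as an alternative and the fits without it were reported. With the replicate block, with or without the trend and robust estimation, 4 members were called in vehicle, 4 after TGF-β1 and 5 with TGF-β1 in PKN2 KO. Of the other listed genes, 2 were called in WT with the replicate block, and 1 (Dchs1) differed between genotypes after TGF-β1 with the replicate block and no trend. Over all 238 genes the block raised the calls from 33 to 87 in vehicle, from 36 to 101 after TGF-β1 and from 8 to 42 for the interaction. The split of calls in vehicle was 26 higher and 7 lower, against 20 and 13 by TMM scaling, and 20 and 21 by the median of ratios. After TGF-β1 it was 21 and 15, against 21 and 34 by TMM scaling, and 26 and 30 by the median of ratios. Of 515 other values of the members' fold changes, 491 moved by less than the spread between libraries.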
